A study of Homo sapiens with 6 samples.

Results

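The 4 ID genes and the 3 E-protein genes were followed in LX-2, an immortalised human hepatic stellate cell line, after treatment with BMP9. The members were all probe sets that the platform annotation assigns to exactly 1 of ID1, ID2, ID3, ID4, TCF3, TCF4 and TCF12, which gave 7 of 18132 genes and 38 of the 49395 probe sets on the array, 12 for the ID genes and 26 for the E-protein genes. Cells had been without serum for 12 h. The BMP9 group (n = 3 arrays) then received 50 ng/ml of the recombinant human protein for 24 h and the control group (n = 3 arrays) 0 ng/ml for the same time. All arrays therefore come from serum-starved cells of 1 line, at 1 dose and 1 time. The labels name the samples biological replicates without saying whether the cultures were separate, so the p-values reflect only how far these samples scatter, which may be technical.

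ID proteins carry a helix-loop-helix domain without the basic stretch that binds DNA. They pair with E proteins, the broadly expressed basic helix-loop-helix factors encoded by TCF3 (E2A), TCF4 (E2-2) and TCF12 (HEB), and keep them from binding E-boxes, alone or with tissue-restricted partners such as MYOD1 or TWIST1. ID genes are among the classical direct targets of SMAD1, SMAD5 and SMAD9, the transducers of BMP ligands, and in stellate cells ID1 is known as a gene that TGF-beta and BMP ligands both switch on. The symbols TCF3 and TCF4 have also been used for the Wnt effectors TCF7L1 and TCF7L2. The probe sets of TCF3, TCF4 and TCF12 here carry the Entrez identifiers of the E-protein genes.

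At least 1 probe set each of ID1, ID3 and ID4 passed the test as higher on the BMP9 arrays. For TCF4 and TCF12, 2 probe sets each passed as lower. Both ID2 probe sets were higher on every BMP9 array without passing, and no TCF3 probe set passed. Which genes passed depended on how probe sets stood for a gene. A probe set passed, and is said to have risen or fallen, at a Benjamini-Hochberg adjusted p under 0.05 in a limma fit of all 49293 probe sets that are not array controls. Of the 12 ID probe sets 4 rose and 0 fell, against 0.134% of all probe sets that rose. Of the 26 E-protein probe sets 4 fell and 0 rose, against 0.276% of all probe sets that fell. Differences are BMP9 minus control on the deposited log2 scale, on which the median of all probe sets was 0.0078. Probe sets of 1 gene measure overlapping transcripts and can share probes, so they are not independent of each other. In bulk RNA, fewer cells with a transcript and less of it per cell cannot be told apart.

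On the 6 arrays the median log2 value lay between 3.55 and 3.57, and Pearson's r between arrays across all probe sets was 0.990 to 0.994. The stellate cell markers COL1A1, COL1A2, VIM and SPARC had mean log2 values of 7.59 to 11.4, whereas ACTA2 stood at 3.97 and THY1 at 4.20. LOX stood at 6.46, DES at 6.40, PDGFRB at 5.75 and TAGLN at 5.44. ACTA2, THY1, PDGFRB, TAGLN, LOX and DES thus lay within the range of the markers of other cell types. The highest of those was CD68 at 6.91. Hepatocyte, endothelial and cholangiocyte markers had mean values of 2.09 to 5.83, the leukocyte markers PTPRC and CD68 2.28 and 6.91, and none of the 20 markers passed the test in a fit with 1 probe set per gene. The files hold no detection calls. The array's 23 background probe sets had a median of 2.39 to 2.43 on the BMP9 arrays and 2.36 to 2.39 on the control arrays, with single ones as high as 10.1, so they give no single floor, and probe sets with values near 2 are not known to lie above background.

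The 250 bases upstream of the annotated start of each ID gene are shown because the 4 genes are known for shared control by SMAD proteins. Sequences are those of RefSeq on GRCh38.p14, where all 4 genes have 1 start in the table, and read 5′ to 3′ on the strand of the gene. Capitals mark GTCT or its complement AGAC, the short element that SMAD proteins bind.
ID1, chr20:31605039-31605288, plus strand: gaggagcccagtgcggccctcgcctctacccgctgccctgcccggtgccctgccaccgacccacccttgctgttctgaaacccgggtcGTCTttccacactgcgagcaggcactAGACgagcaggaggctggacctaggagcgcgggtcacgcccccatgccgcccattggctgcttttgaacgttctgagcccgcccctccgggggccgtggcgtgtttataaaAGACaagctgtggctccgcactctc
ID2, chr2:8681806-8682055, plus strand: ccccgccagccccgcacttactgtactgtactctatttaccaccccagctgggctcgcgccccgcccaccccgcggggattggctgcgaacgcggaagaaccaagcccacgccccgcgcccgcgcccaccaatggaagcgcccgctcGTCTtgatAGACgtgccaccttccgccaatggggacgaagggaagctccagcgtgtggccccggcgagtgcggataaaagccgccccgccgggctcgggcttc
ID3, chr1:23559502-23559751, minus strand: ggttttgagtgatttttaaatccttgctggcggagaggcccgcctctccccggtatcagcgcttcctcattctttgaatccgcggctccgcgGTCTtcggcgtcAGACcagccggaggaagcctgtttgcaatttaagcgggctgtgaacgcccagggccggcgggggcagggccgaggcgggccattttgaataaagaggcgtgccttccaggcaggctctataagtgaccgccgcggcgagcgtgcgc
ID4, chr6:19837120-19837369, plus strand: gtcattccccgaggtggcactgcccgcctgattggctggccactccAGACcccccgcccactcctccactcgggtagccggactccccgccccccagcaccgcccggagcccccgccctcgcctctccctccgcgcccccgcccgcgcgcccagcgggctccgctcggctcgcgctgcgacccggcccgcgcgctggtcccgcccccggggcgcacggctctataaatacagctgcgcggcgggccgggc
The window of ID1 held 3 copies of GTCT counted on both strands, those of ID2 and ID3 held 2 each and that of ID4 held 1. At least 1 copy was found in 77.5% of 35116 promoter windows of the same length. Among the E-protein genes, GTCT was found at 10 of 10 starts of TCF4, 4 of 5 of TCF12 and 0 of 1 of TCF3. The longer GC-rich element GGCGCC was absent from all 4 ID windows, present at 1 start of TCF12 and present in 16.4% of promoters. The E-box CANNTG, the kind of site that E proteins bind, occurred once in the windows of ID2 and ID4, as CAGCTG on both, and in 0 copies in those of ID1 and ID3, against 61.8% of promoters with at least 1. The E-box matches overlapped no marked GTCT. These matches describe the letters of a window only, and elements farther upstream, where the known BMP-responsive enhancer of ID1 lies, were not searched.

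ID1 (chr20:31605289-31606510), which encodes the family's founding member, had 3 probe sets that did not behave alike. Probe set 11753661_a_at stood at 6.09, 5.76 and 6.17 on the BMP9 arrays and at 2.60, 3.27 and 2.51 on the control arrays. No BMP9 value came near the control values, and the smallest gap between the groups exceeded the range within either group. The rise was 3.21 (SE 0.18, 95% interval 2.81 to 3.61), or 9.27-fold, with a limma adjusted p of 1.70e-05. The control values of 2.51 and 2.60 lie near the median of the background probe sets (2.36 to 2.39 on the control arrays), and whether they exceed background is unknown, so the size of the difference and of the fold rests on an uncertain control level. The other ID1 probe sets were annotated to a different transcript record. Probe set 11716195_a_at averaged 5.68 ± 0.16 with BMP9 and 5.36 ± 0.26 in control (SD, n = 3), a difference of 0.32 (limma adjusted p = 0.388), and 11716196_x_at averaged 5.64 ± 0.14 with BMP9 and 5.50 ± 0.12 in control, a difference of 0.14 (95% interval -0.076 to 0.35). In both, the groups overlapped. RefSeq lists 2 transcripts of ID1, and the pair that did not pass carries the record NM_181353 whereas the probe set that rose carries the messenger RNA record D13889; which transcripts each probe set reads was not tested.

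ID2 (chr2:8682056-8684461), whose product also binds the retinoblastoma protein, was higher on every BMP9 array in both of its probe sets without passing. Probe set 11746878_s_at had log2 values of 5.80, 5.75 and 5.88 with BMP9 and 5.05, 4.83 and 3.92 in control. The BMP9 arrays lay within 0.13 of each other, whereas control replicate 3 stood apart from the other control arrays. The difference was 1.21 (SE 0.22, 95% interval 0.72 to 1.71), 2.32-fold, with a limma adjusted p of 0.0532. It passed when control replicate 1 (adjusted p = 0.0363) or control replicate 3 (difference 0.87, adjusted p = 0.00912) was left out, and also with 1 probe set per gene (adjusted p = 0.0492). The dimmer 11715994_x_at averaged 2.54 ± 0.13 with BMP9 and 2.26 ± 0.096 in control (SD, n = 3), a difference of 0.28 (limma adjusted p = 0.285).

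ID3 (chr1:23557926-23559501) had the brightest ID probe sets and was the ID gene in which more than 1 probe set rose. Probe set 11754008_x_at stood at 8.65, 8.98 and 8.88 with BMP9 and at 7.37, 7.0 and 7.25 in control. Probe set 11716666_a_at stood at 7.65, 7.98 and 8.06 with BMP9 and at 6.82, 6.98 and 6.48 in control. Every BMP9 array lay above every control array in both. The rises were 1.63 (SE 0.12, limma adjusted p = 8.74e-05), 3.09-fold, and 1.14 (SE 0.14, limma adjusted p = 0.00505), 2.20-fold. The larger rise was in a probe set with the suffix _x_at, which marks probes that may also match other transcripts. The smaller, in 11716666_a_at, was in a probe set without this suffix. The remaining ID3 probe set, 11757404_x_at, averaged 7.99 ± 0.097 with BMP9 and 7.58 ± 0.22 in control (SD, n = 3). Its groups did not overlap, and the difference of 0.41 (95% interval 0.16 to 0.66) did not pass (limma adjusted p = 0.199).

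ID4 (chr6:19837370-19842197), whose product has been described as binding other ID proteins as well, rose in 1 of 4 probe sets. Probe set 11721689_x_at had log2 values of 6.38, 6.37 and 6.46 with BMP9 and 5.25, 5.59 and 5.40 in control. The BMP9 values lay within 0.09 of each other and all above control. The rise was 0.99 (SE 0.095, 95% interval 0.78 to 1.20), 1.98-fold, with a limma adjusted p of 0.00116. The suffix _x_at marks probe sets with probes that may also match other transcripts, and no ID4 probe set without such a suffix rose. The remaining 3 had mean log2 values of 1.93 to 2.77 over the 6 arrays and differences of -0.10 to 0.13, and their groups overlapped.

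**Figure D1:**
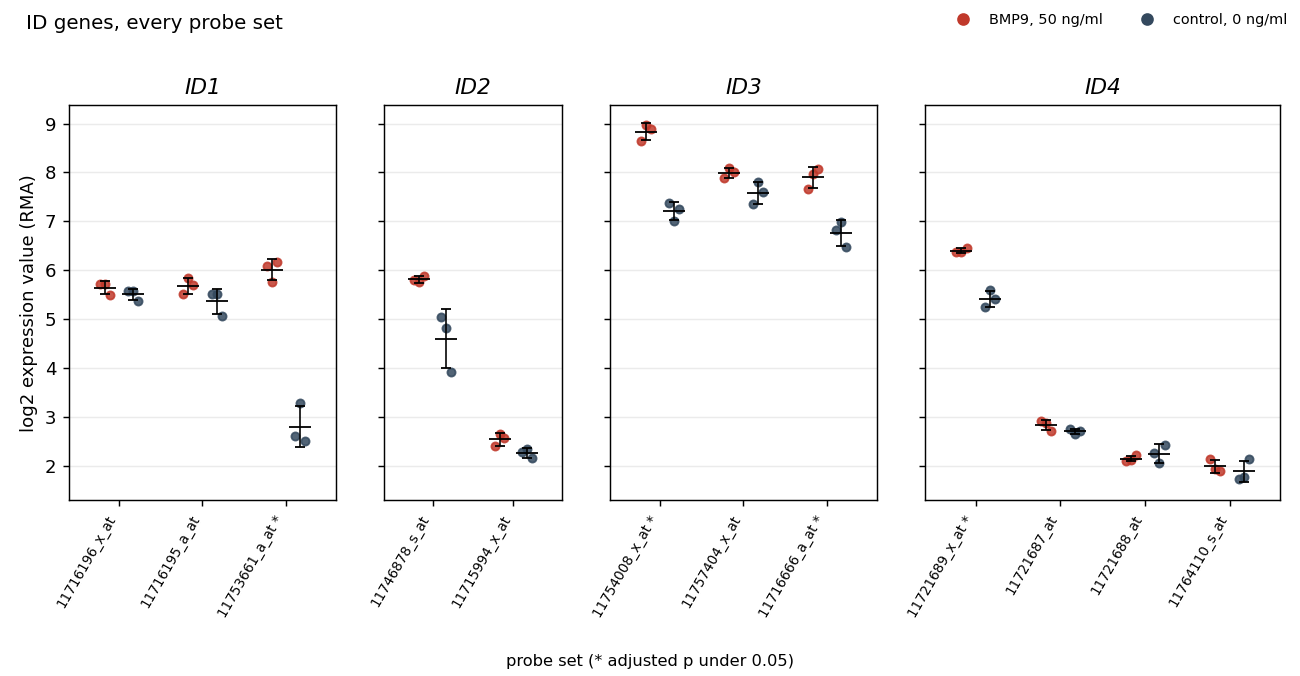
Log2 expression values (vertical axis, RMA) of the 12 ID probe sets on each array, BMP9 left and control right within each probe set, with bars for the mean ± SD of 3 arrays; an asterisk marks an adjusted p under 0.05. The BMP9 points lie above the control points without overlap in 7 of 12 probe sets, most widely in 11753661_a_at of ID1.

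Over the ID genes, 7 of 12 probe sets had all BMP9 arrays above all control arrays, against 9.09% of all probe sets, and 11 of 12 differences were positive, against 52.6% of all probe sets. The 4 rises held whichever single array was left out. Brightness went along with the size of a difference only in part: the ID1 probe set that rose had a control mean of 2.80, the 3 dim ID4 probe sets differed by -0.10 to 0.13, and the ID1 probe sets with control means of 5.36 and 5.50 differed by at most 0.32. With all probe sets of a gene averaged, ID1 rose by 1.22 (SE 0.10, limma adjusted p = 0.00205) and ID3 by 1.06 (SE 0.083, adjusted p = 0.00135). The ID1 average rests mostly on the probe set that rose, by 3.21, whose control level is uncertain. The other ID1 probe sets differed by 0.32 and 0.14. The latter stood for ID1 in the fit with 1 probe set per gene and did not pass (limma adjusted p = 0.582). Averages of ID2 (0.74, adjusted p = 0.0780) and ID4 (0.28, adjusted p = 0.128) did not pass.

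TCF4 (chr18:55222185-55635957), the largest of these genes and one with many alternative first exons, fell in 2 of 11 probe sets. The brightest, 11724239_at, had log2 values of 8.50, 8.19 and 8.37 with BMP9 and 8.94, 8.88 and 8.93 in control. Probe set 11745765_x_at stood at 5.34, 5.33 and 5.32 with BMP9 and at 6.08, 5.97 and 5.91 in control. In both, every BMP9 array lay below every control array, and the gap between the groups exceeded the range within either group. The falls were -0.56 (SE 0.092, limma adjusted p = 0.0277), 1.48-fold lower, and -0.66 (SE 0.079, limma adjusted p = 0.00486), 1.58-fold lower. The call of 11745765_x_at, whose suffix marks probes that may match other transcripts, held whichever array was left out (adjusted p 0.0158 to 0.0349). That of 11724239_at was kept only without BMP9 replicate 1 and was lost without any other single array, with differences of -0.64 to -0.48 and adjusted p up to 0.129.

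The other 9 TCF4 probe sets had mean log2 values between 2.29 and 4.53 and did not pass. All 9 differences were negative. The largest in size was that of 11747698_x_at, which averaged 4.0 ± 0.049 with BMP9 and 4.46 ± 0.13 in control (SD, n = 3), a difference of -0.46 (limma adjusted p = 0.0575). The smallest was that of 11724243_at, at 3.93 ± 0.085 with BMP9 and 3.97 ± 0.14 in control, a difference of -0.037 (95% interval -0.24 to 0.17). In 7 of the 11 TCF4 probe sets the BMP9 arrays lay entirely below the control arrays.

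TCF12 (chr15:56918090-57291310) also fell in 2 of 11 probe sets. Probe set 11726957_a_at had log2 values of 7.60, 7.42 and 7.43 with BMP9 and 8.26, 8.09 and 7.98 in control. Probe set 11720580_a_at stood at 7.16, 6.998 and 7.06 with BMP9 and at 7.75, 7.64 and 7.52 in control. All BMP9 arrays were below all control arrays in both. The falls were -0.63 (SE 0.094, limma adjusted p = 0.0165), 1.55-fold lower, and -0.57 (SE 0.089, limma adjusted p = 0.0220), 1.48-fold lower. The call of 11726957_a_at was kept without BMP9 replicate 1 or control replicate 3 and lost without any other single array (differences -0.69 to -0.56, adjusted p up to 0.105). That of 11720580_a_at was kept only without control replicate 3 (differences -0.63 to -0.51, adjusted p up to 0.123 over the arrays left out).

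A further 3 bright TCF12 probe sets came close without passing. The brightest, 11720581_s_at, averaged 8.12 ± 0.097 with BMP9 and 8.70 ± 0.22 in control (SD, n = 3), a difference of -0.58 (limma adjusted p = 0.0638). Probe set 11720584_x_at averaged 6.17 ± 0.064 with BMP9 and 6.59 ± 0.034 in control, a difference of -0.41 (limma adjusted p = 0.0556), and 11752247_a_at averaged 7.21 ± 0.13 with BMP9 and 7.62 ± 0.018 in control, a difference of -0.42 (limma adjusted p = 0.0859). The groups did not overlap in any of these. The 6 dimmer TCF12 probe sets had mean values of 1.84 to 3.62 and differences of -0.40 to -0.055. Averaged over all its probe sets, TCF12 fell by 0.36 on the log2 scale (SE 0.055, limma adjusted p = 0.0316). The average of TCF4 was -0.30 (SE 0.058, adjusted p = 0.0788).

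TCF3 (chr19:1609292-1652615), which encodes the E12 and E47 splice products and is the E protein best known from B cell development, had 4 probe sets, and none passed. The brightest, 11745937_a_at, had log2 values of 5.97, 6.02 and 5.96 with BMP9 and 5.92, 5.98 and 5.78 in control. The groups overlapped, and the difference was 0.092 (SE 0.082, 95% interval -0.089 to 0.27, limma adjusted p = 0.717). The others differed by -0.021 to 0.14, and all 4 had overlapping groups. Averaged over its probe sets TCF3 differed by 0.054, with a 95% interval of -0.077 to 0.18, against intervals of -0.43 to -0.17 for TCF4 and -0.48 to -0.24 for TCF12 averaged in the same way. The difference between TCF3 and the other E-protein genes was not itself tested, and a failed test does not show that TCF3 stayed the same.

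**Figure D2:**
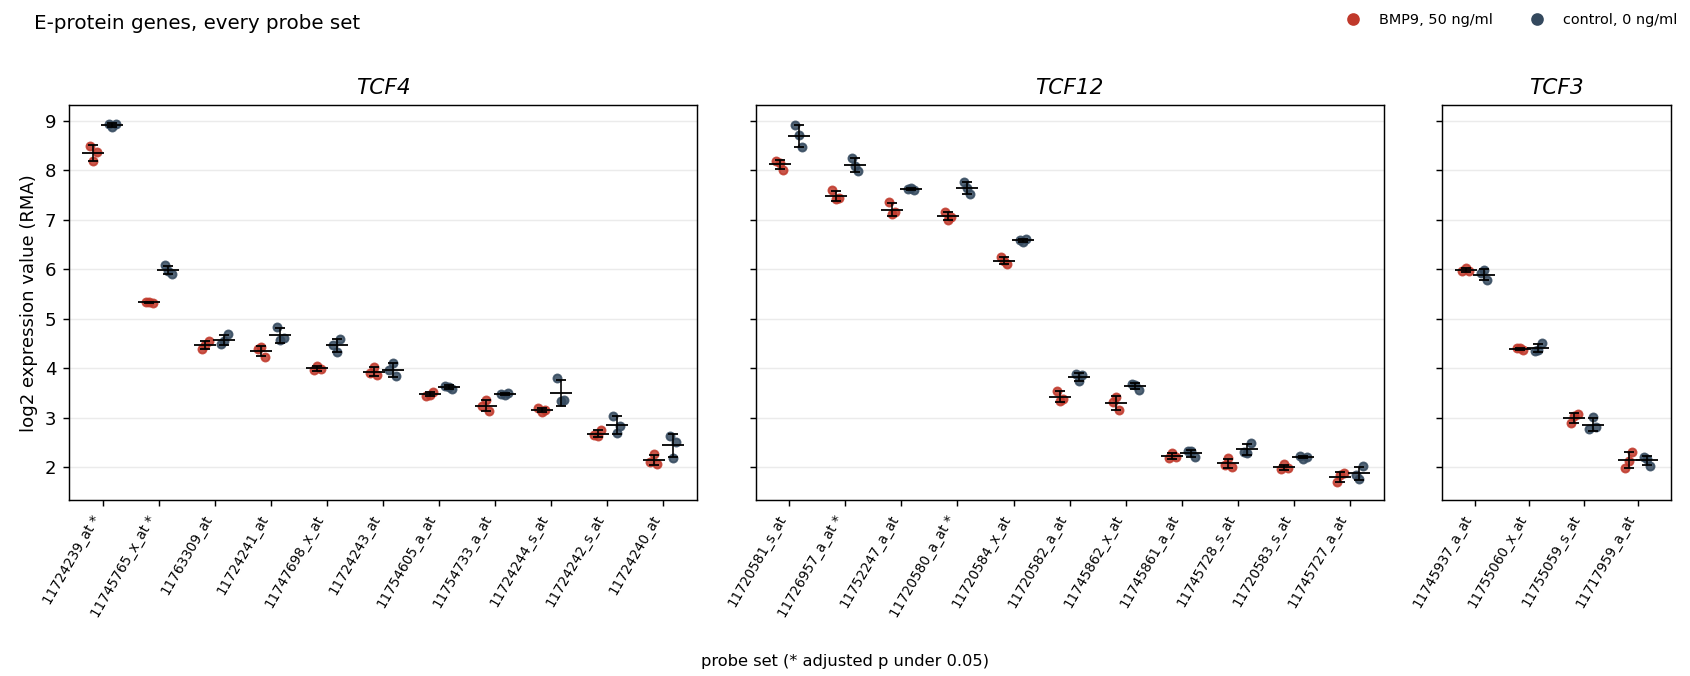
Log2 expression values (vertical axis, RMA) of the 26 E-protein probe sets on each array, ordered by mean within a gene, BMP9 left and control right, with bars for the mean ± SD of 3 arrays; an asterisk marks an adjusted p under 0.05. BMP9 points lie below control in all 7 probe sets of TCF4 and TCF12 with a mean of at least 5, and the groups overlap in all 4 TCF3 probe sets.

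Across TCF4 and TCF12, all 22 differences were negative, against 47.4% of all probe sets. The BMP9 arrays lay entirely below the control arrays in 16 of 22, against 8.17% of all probe sets. Among the 7 probe sets with a mean log2 value of at least 5 the differences ran from -0.66 to -0.41 (median -0.57), and among the 15 dimmer ones from -0.46 to -0.037 (median -0.24). The part of brightness in this was not tested. The called ID rises ran from 0.99 to 3.21 and the called falls from -0.66 to -0.56.

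**Figure D3:**
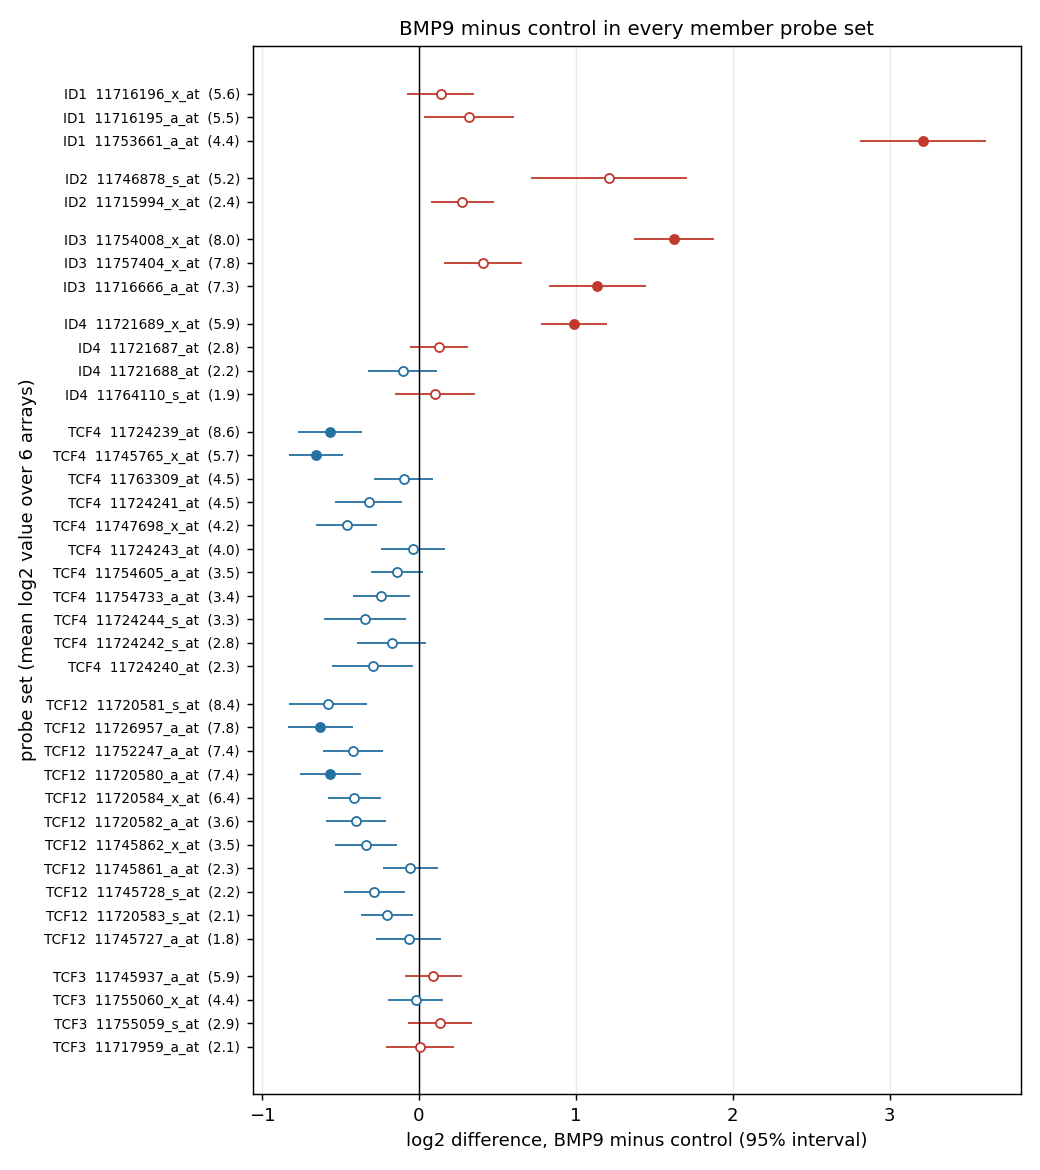
Log2 difference, BMP9 minus control, with its 95% interval (horizontal axis) for each of the 38 probe sets, labelled with the mean log2 value over 6 arrays; filled points have an adjusted p under 0.05, red is above 0 and blue below. Filled points lie to the right in ID1, ID3 and ID4 and to the left in TCF4 and TCF12, and all TCF3 intervals cross 0.

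The falls of TCF4 and TCF12 depended on the scale. The array's control probe sets read lower on the BMP9 arrays: the hybridisation controls averaged 9.87 to 10.0 with BMP9 and 10.1 to 10.2 in control, and the poly-A controls 5.39 to 5.83 with BMP9 and 6.09 to 6.22 in control. Scaling to the hybridisation controls moved the median of all probe sets to 0.22, and 10445 of 49293 probe sets passed as higher. The 4 ID rises and the 4 falls of TCF4 and TCF12 were kept. Scaling to the poly-A controls moved the median to 0.54, and 45775 of 49293 passed as higher. The 4 falls shrank there to between -0.12 and -0.033 and did not pass. The 4 ID rises held, but either scaling could only enlarge a positive difference, so this is no test of them. Each scaling adds 1 constant to every difference, so distances from the median of all probe sets are the same on every scale by construction. Whether spiked controls or the bulk of transcripts is the better yardstick was not tested.

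The genes that work with these factors were counted from lists, with 1 probe set per gene and adjustment over 18132 genes, of which 0.232% rose and 0.452% fell. The share of all genes with an unadjusted p under 0.05 was not counted, so list counts at that level have no background. Tissue-restricted basic helix-loop-helix factors, which pair with E proteins, had 41 measured genes, and 0 passed in either direction (limma; 3 had an unadjusted p under 0.05). Their median difference was 0.067, against 0.014 over all genes. The partner closest to passing was TWIST1, a mesenchymal regulator, at 4.39 ± 0.069 with BMP9 and 4.74 ± 0.058 in control (SD, n = 3, limma adjusted p = 0.0867), and only 10 of the 41 had a mean log2 value of at least 5. Of 10 cofactors bound by E proteins, RUNX1T1 fell and 0 rose. RUNX1T1 encodes ETO, a corepressor that docks onto the activation domain of E proteins. It stood at 7.12, 7.02 and 6.95 with BMP9 and at 8.48, 8.54 and 8.54 in control, a fall of -1.49 (SE 0.075, limma adjusted p = 1.23e-05), 2.81-fold lower. Its family members CBFA2T2 and CBFA2T3 did not pass. Neither did the coactivators EP300 (-0.39, limma adjusted p = 0.0977), KAT2B (-0.47, adjusted p = 0.0827), CREBBP (-0.057, adjusted p = 0.796) and KAT2A (0.0026, adjusted p = 0.995). EP300 and KAT2B had mean log2 values of 3.56 and 3.11, against 5.12 for CREBBP and 6.09 for KAT2A.

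Partners of ID proteins outside the E proteins, such as retinoblastoma and ETS family members, had 14 measured genes, and 0 passed (limma; 4 had an unadjusted p under 0.05; median -0.0025). Of the 4 measured CDK inhibitor genes that E proteins activate, 0 passed (limma, 2 had an unadjusted p under 0.05). CDKN1A, which encodes p21, differed by 0.19 (95% interval 0.0043 to 0.37, limma adjusted p = 0.376). CDKN1C differed by 0.33 (adjusted p = 0.330), CDKN2A by 0.094 and CDKN2B by -0.14. The 5 genes of ID protein turnover had 0 past the threshold (limma; 0 had an unadjusted p under 0.05), among them USP1, whose product removes ubiquitin from ID proteins. Basic helix-loop-helix leucine zipper factors such as MYC and USF1, a separate class of the family, had 19 measured genes, of which 0 passed (limma; 2 had an unadjusted p under 0.05; median 0.016).

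Among 16 other targets of BMP signalling through SMAD1, SMAD5 and SMAD9, 2 rose and 0 fell, with a median difference of 0.17. SMAD6, an inhibitory SMAD, stood at 9.07, 8.92 and 8.97 with BMP9 and at 5.80, 6.14 and 5.98 in control, and the BMP antagonist GREM1 at 8.03, 7.14 and 7.72 with BMP9 and at 5.68, 6.10 and 6.11 in control. The rise of SMAD6 was 3.01 and that of GREM1 1.67. The list was drawn up with these results known, so its count is a description.

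**Figure D4:**
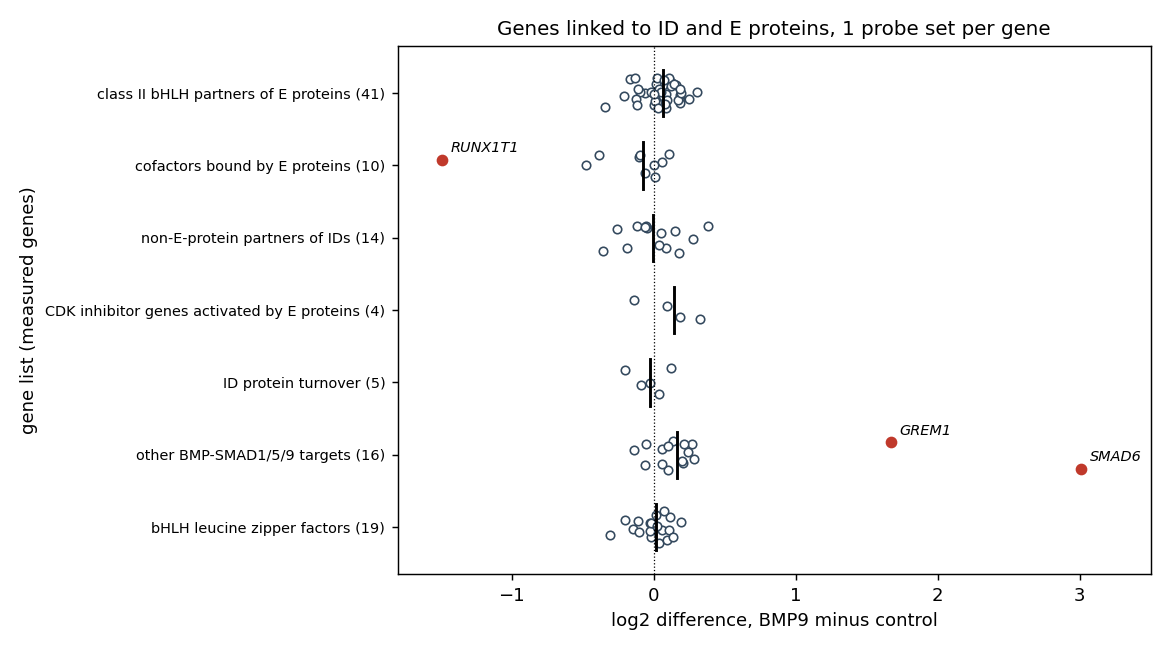
Log2 difference, BMP9 minus control (horizontal axis), of each measured gene in the 7 lists, 1 probe set per gene, with a black bar at the list's median; filled red points have an adjusted p under 0.05 over 18132 genes. RUNX1T1, GREM1 and SMAD6 are the 3 filled points, and the medians of the lists lie between -0.077 and 0.17.

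The 5 genes whose values over the 6 arrays ran closest to those of ID3 (probe set 11754008_x_at), among 4809 single-gene probe sets that averaged 6 or more on the log2 scale in either group, were ADGRL1, CD9, TUBB, CXXC5 and SGK1. Pearson's r was 0.987 to 0.994. The arrays form 2 groups, so r mainly records the step between them, and the sizes of the steps differed widely. CXXC5, a CXXC zinc finger gene, averaged 8.93 ± 0.016 with BMP9 and 7.78 ± 0.10 in control (SD, n = 3), and SGK1, a serum- and glucocorticoid-induced kinase gene, 7.94 ± 0.029 with BMP9 and 7.36 ± 0.091 in control. CD9 and TUBB differed by 0.17 and 0.16, which did not pass (limma adjusted p = 0.423 and 0.442).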

How the data were processed

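Expression was measured on 6 Affymetrix 3′ arrays, 3 per group, from biotin-labelled RNA of serum-starved LX-2 cells. The values analysed are the authors' RMA output on a log2 scale, 1 per probe set and array, per the submitters' processing notes. The notes give neither software nor settings, and the log base was inferred from how far the values reach. RMA removes background, equalises the arrays' distributions and combines the probes of a set, so a shift common to most transcripts is largely lost. All 6 columns were matched by sample identifier, and symbols came from the platform annotation, checked against the gene table of GRCh38.p14 for the 7 members.

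Of 49395 probe sets, 102 array controls were left out, and the other 49293 were fitted together in limma 3.58.1 under R 4.3.3 (lmFit and eBayes, constant prior, no covariate, two-sided, Benjamini-Hochberg over all, threshold 0.05). The prior and residual degrees of freedom were 6.71 and 4. Lists were counted in a fit of 18132 genes, each with its single-gene probe set of highest mean. No filter on dim probe sets was used, and the number of arrays limits the precision. The fit was tested on simulated data. Figures used matplotlib 3.10.9.

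The members and lists were chosen with earlier results of these data known. The text covers every member probe set, by name or within a range, and names list genes past the threshold (up to 4 per list), the 5 genes most like ID3, and some list genes that did not pass, chosen after their values were seen. Alternatives were a replicate block, a trended robust prior, a minimum mean of 5, further normalisation, scaling to control probe sets, no _s_at or _x_at probe sets, other ways to represent a gene, a fold minimum of 1.5, and leaving out each array. Deviations of same-numbered samples correlated at -0.023 to 0.034, and those of different-numbered samples at -0.058 to 0.055. No shared effect of the replicate number was seen, but this cannot tell whether the cultures were paired by design.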

Additional observations from a re-analysis of the deposited data

How the results depend on the processing

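The count of 8 member probe sets past the threshold was 9 with the replicate block, which changed no call but that of TCF12 11720581_s_at (gained, adjusted p = 0.0381), and 8 with quantile normalisation or median centring. It was 11 of the 15 left by a minimum mean of 5, which drops the ID1 probe set that rose and tests fewer probe sets, and 13 with the trended robust prior, which added ID2, TCF4 11747698_x_at and 3 TCF12 probe sets. It was 5 without _s_at and _x_at probe sets, with 20 of 38 members left, and 2 (ID1 and ID3) with a fold minimum of 1.5. It was 16 and 22 with hybridisation and poly-A scaling. Over the arrays left out it ran from 5 (without BMP9 replicate 2 or 3, or control replicate 2) to 9. Of the 7 genes, 4 passed with 1 probe set each (ID2, ID3, ID4 and TCF4) and 3 with averaged probe sets (ID1, ID3 and TCF12). The count of 3 list genes was 4 with the replicate block, 5 with the trended prior, 6 with the minimum mean, 42 and 100 with hybridisation and poly-A scaling, and 3 whichever array was left out. Over all probe sets, 202 passed, against 429 with the trended prior, 449 of 11438 with the minimum mean, 136 without _s_at and _x_at probe sets, 88 to 137 over the arrays left out, and 10588 and 45805 with hybridisation and poly-A scaling, of which 10445 and 45775 were higher. On the deposited scale 66 were higher and 136 lower.

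Both control scalings add 1 constant to every difference, so the negative differences smaller than it turn positive by construction. With hybridisation scaling these were 0.11 in ID4, 0.19 in TCF3, 0.11, 0.17, 0.072 and 0.037 in TCF4, 0.16, 0.0094 and 0.15 in TCF12. With poly-A scaling they were 0.43 in ID4, 0.51 in TCF3, 0.43, 0.21, 0.070, 0.49, 0.39, 0.29, 0.19, 0.36 and 0.24 in TCF4, 0.11, 0.12, 0.13, 0.19, 0.48, 0.25, 0.33 and 0.47 in TCF12. Centring on medians turned TCF3 11717959_a_at to -0.0052. Without single arrays, differences that crossed 0 ranged from -0.077 to 0.085 for TCF3 11717959_a_at, -0.046 to 0.026 for TCF3 11755060_x_at, -0.10 to 0.035 for TCF4 11724243_at, -0.12 to 0.0075 for TCF12 11745727_a_at. None of these 4 had passed on the deposited scale. The cause of these changes was not tested beyond the shift itself. Arrays give no counting depth, and without detection calls the dim probe sets limit what can be said of ID4, TCF3, TCF4 and TCF12.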
